A study of Mus musculus with 14 samples.

Results

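The oligodendrocyte lineage genes Myrf, Olig1, Olig2, Sox10, Sox8, Pdgfra and Cspg4 were examined for H3K4me3, the trimethylation of histone H3 that sits around the starts of genes in use or held ready, in mouse prefrontal cortex. A peak summit was assigned to one of the 7 genes when it lay inside the gene or within 2 kb of its boundaries, which gave 92 of the 153207 deposited summits, 72 of them inside a gene and 20 outside. The mark was mapped by ChIP-seq, sequencing of the DNA pulled down with an antibody against it, in male C57BL/6J mice of 10 to 12 weeks. The SDS10 group (5 libraries) met an aggressive CD1 mouse daily for 10 days and the SDS30 group (5 libraries) for 30 days; between encounters each animal lived next to an aggressor behind a perforated partition. The control group (3 libraries) lived in divided cages and met no aggressor. Tissue was dissected 24 h after the final encounter, and all 13 libraries carry the same batch date. Values are the authors' normalised reads per summit. Whether every library is a different animal is not in the labels, and p-values therefore cover only the spread between these libraries, which may be technical.

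Oligodendrocytes wrap axons in myelin and arise from precursor cells that stay in the adult cortex. Olig1 and Olig2 are basic helix-loop-helix transcription factors of the lineage, and Olig2 is required to specify it. Sox10 and Sox8 are related high-mobility-group factors that act in precursors and in myelinating cells, and Myrf is a membrane-anchored factor that is released by self-cleavage and switches on myelin genes. Pdgfra is the receptor through which platelet-derived growth factor drives precursor division, and it also marks fibroblasts of the brain coverings. Cspg4 encodes the NG2 proteoglycan of precursors and of pericytes, the mural cells of capillaries.

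The start sites of 4 of the 7 genes were found in the RefSeq promoter table (GRCm38.p6), and their 250 upstream bases are shown because the mark lay differently around these starts. Sequences run 5′ to 3′ along the gene's own strand and end at the base before the start site. Capitals mark CG dinucleotides, which are dense in the promoters that usually carry H3K4me3. The windows are chr16:91225300-91225549 on the plus strand for Olig2, chr17:25570687-25570936 on the minus strand for Sox8, chr5:75152001-75152250 on the plus strand for Pdgfra and chr9:56864854-56865103 on the plus strand for Cspg4.
Olig2: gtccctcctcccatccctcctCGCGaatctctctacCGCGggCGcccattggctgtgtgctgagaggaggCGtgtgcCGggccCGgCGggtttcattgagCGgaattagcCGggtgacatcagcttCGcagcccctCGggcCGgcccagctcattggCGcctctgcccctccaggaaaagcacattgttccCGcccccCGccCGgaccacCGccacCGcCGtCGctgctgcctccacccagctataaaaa
Sox8: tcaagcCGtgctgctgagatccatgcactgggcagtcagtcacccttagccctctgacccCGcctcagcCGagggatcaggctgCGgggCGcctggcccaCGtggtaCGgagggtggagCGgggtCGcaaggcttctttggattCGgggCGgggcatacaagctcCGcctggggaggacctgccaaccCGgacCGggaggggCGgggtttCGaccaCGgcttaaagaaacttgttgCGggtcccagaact
Pdgfra: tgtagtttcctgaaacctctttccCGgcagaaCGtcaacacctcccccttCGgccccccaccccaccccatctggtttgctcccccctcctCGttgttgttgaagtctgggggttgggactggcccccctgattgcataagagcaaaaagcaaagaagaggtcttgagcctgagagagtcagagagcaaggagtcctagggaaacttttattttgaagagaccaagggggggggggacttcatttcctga
Cspg4: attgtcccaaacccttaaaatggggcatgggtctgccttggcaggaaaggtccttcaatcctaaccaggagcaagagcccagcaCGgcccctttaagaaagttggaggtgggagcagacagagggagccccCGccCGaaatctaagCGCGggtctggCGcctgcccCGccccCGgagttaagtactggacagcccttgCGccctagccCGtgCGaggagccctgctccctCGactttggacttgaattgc

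The Olig2 window held 22 CG dinucleotides, and its ratio of observed to expected CG was 0.821, above that of 77.0% of 21263 promoters of the same length. Sox8 held 18 with a ratio of 0.676, above 62.1% of promoters, and Cspg4 held 12 with a ratio of 0.527, above 49.8%. Pdgfra held 4, and its ratio of 0.217 was above that of only 24.9% of promoters; the median over all promoters was 0.53. The share of G and C was 66.8% at Olig2, 65.6% at Sox8, 60.4% at Cspg4 and 54.4% at Pdgfra, against a median of 55.6%. Motif letters were searched on both strands. The E-box CANNTG, the core read by basic helix-loop-helix factors, matched once at Sox8 (152 bases upstream of the start) and once at Pdgfra (182 bases upstream), and 62.81% of all promoters hold it. The SOX core ACAAT matched once at Olig2 (67 bases upstream) and once at Cspg4 (250 bases upstream), against 25.09% of all promoters. The GC box GGGCGG matched 2 times at Olig2, Sox8 and Cspg4 and 0 times at Pdgfra, and 42.62% of promoters hold it. Of the 4 windows, Olig2 alone held TATAAA (8 bases upstream; 11.63% of promoters) and CCAAT (203 and 98 bases upstream; 35.37% of promoters). The GC boxes and the Sox8 E-box contain a capital CG, and no matched motif overlapped another. A match describes letters and not a bound site.

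All 7 genes carried H3K4me3, at levels in the lower part of the range over protein-coding genes. The strongest promoter summit was taken as the one with the highest mean over the 13 libraries within 2 kb of a gene's listed start, or of either gene boundary for Myrf, Olig1 and Sox10. Over 14299 protein-coding genes with such a summit the median level was 97.8 normalised reads, and the 7 genes ran from 80.3 at Sox8 down to 23.3 at Sox10. In order of level, the strongest summit averaged 80.3 at Sox8, 59.9 at Myrf, 57.9 at Olig1, 44.1 at Olig2, 33.7 at Pdgfra, 33.3 at Cspg4 and 23.3 at Sox10. The share of genes with a lower level was 32.6% for Sox8, 20.2% for Myrf, 18.9% for Olig1, 11.8% for Olig2, 7.54% for Pdgfra, 7.39% for Cspg4 and 3.06% for Sox10. In this order, Myrf and Olig1, Olig2 and Pdgfra, and Pdgfra and Cspg4 lay closer to each other than the larger of their SDs over the 13 libraries, and the other neighbours lay apart by little more than that. In bulk tissue, fewer cells that carry the mark and less of the mark per cell cannot be told apart. Single summits rested on 3 to 134 reads per library, so the counting error alone is wide at the weaker ones. The labels name no molecular identifiers, so PCR copies of a fragment may count more than once.

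Among the transcription factor genes, Sox8, Olig1 and Olig2 carried many summits. Sox8 (chr17:25565893-25570686, minus strand) had 32 summits, more than 97.99% of 15248 protein-coding genes with a summit, and its widest called region held 15 summits over 2842 bp, wider than at 97.5% of genes. Its strongest summit lay at chr17:25570562-25570563, 123 bp into the gene, and its strongest summit more than 2 kb from the start, at 2213 bp, still averaged 49.5. Every Sox8 summit between -969 and 1873 bp averaged 45.3 or more. Olig1 (chr16:91269769-91271939) is a short gene covered by the mark, with 14 summits and a region of 13 summits over 1893 bp, wider than at 89.5% of genes. Its strongest summit lay at chr16:91269822-91269823, 54 bp inside the lower gene boundary. Olig2 (chr16:91225550-91228677, plus strand) had 18 summits, more than 88.1% of genes, and 6 of them formed its widest region of 1198 bp. Its strongest summit lay at chr16:91225691-91225692, 142 bp into the gene. The strongest Olig2 summit more than 2 kb from that one averaged 26.0 and lay 2331 bp from the start.

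Myrf and Sox10 carried few summits, all near their upper gene boundary. Myrf (chr19:10208271-10240777) had 4 summits, all in 1 region of 579 bp. The strongest, at chr19:10240657-10240658, lay at -119 bp, inside the boundary. Sox10 (chr15:79154913-79164490) also had 4 summits, spread from -1319 to -127 bp and averaging 19.2 to 23.3. The widest Sox10 region held 2 summits over 158 bp, wider than at 5.52% of genes. The strongest Sox10 summit, at chr15:79164204-79164205, lay at -285 bp, inside the boundary, and averaged only 23.3.

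The precursor surface genes carried the mark away from the start or in scattered places. At Pdgfra (chr5:75151322-75198206, plus strand) no summit lay at the listed start site at 75152251. The first of its 15 summits was 932 bp downstream and the last 4859 bp downstream. The strongest summit within 2 kb, at chr5:75154090-75154091 (1840 bp downstream), averaged 33.7, and the strongest of all, at chr5:75156720-75156721 (4470 bp downstream), averaged 56.6. Of 12148 genes with a listed start and a summit, 1437 (11.8%) also had their strongest summit more than 2 kb from every listed start, and 931 (7.66%) had no summit within 900 bp of one. Cspg4 (chr9:56865104-56899870, plus strand) had 5 summits, 3 of them between -270 and 53 bp from the start. Its strongest lay at chr9:56865156-56865157, 53 bp into the gene. The other 2 lay 24957 bp downstream, where the level averaged 24.6, and 26662 bp downstream (chr9:56891765-56891766), where it averaged 33.1, level with the 33.3 at the start.

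**Figure D1:**
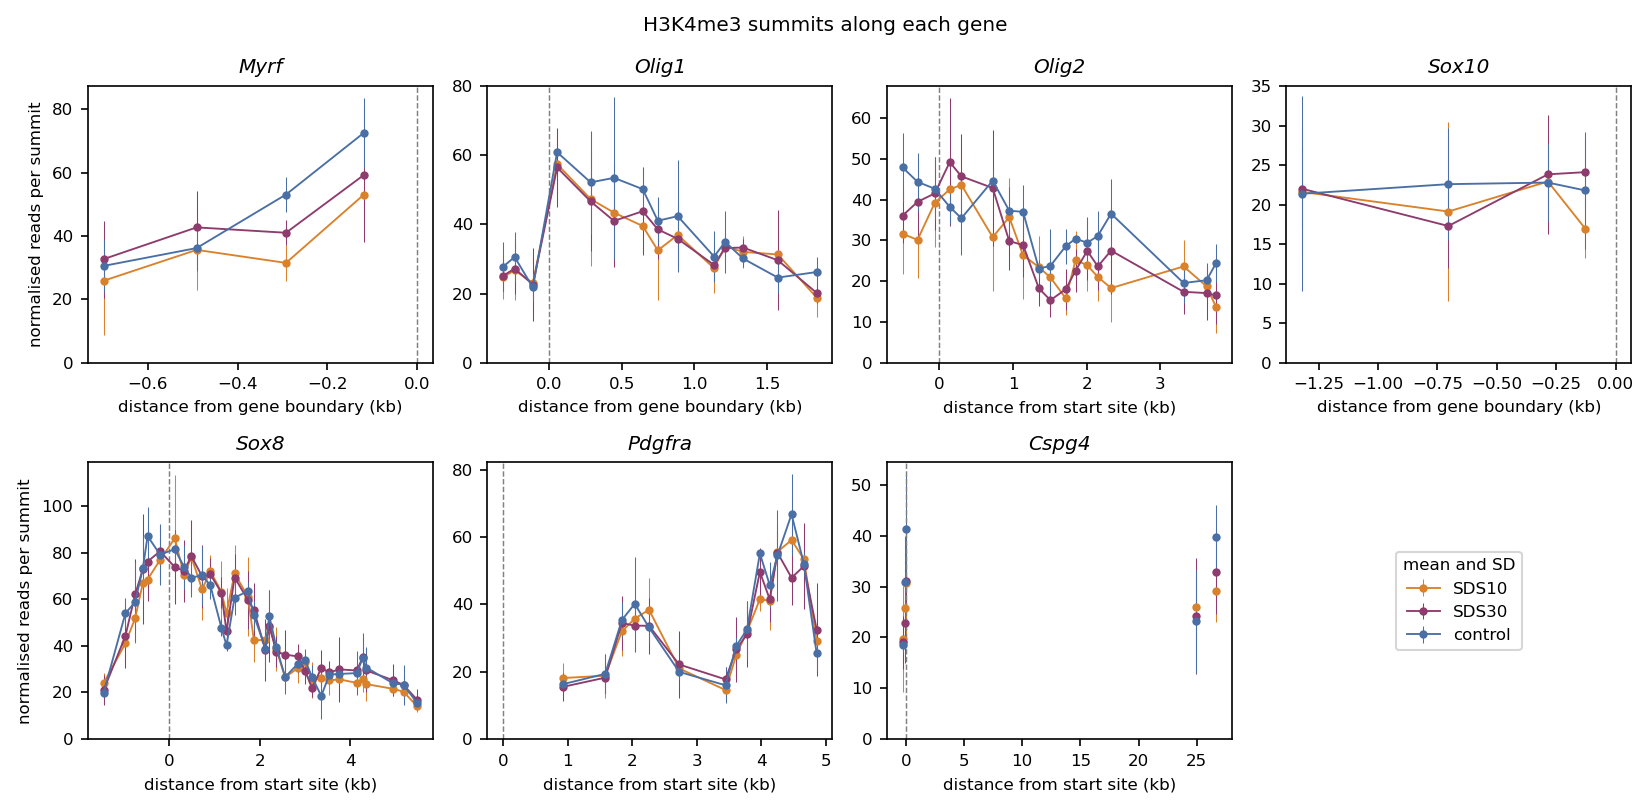
Mean normalised reads per summit (y axis; bars are the SD over the 5 SDS10, 5 SDS30 and 3 control libraries) against the distance of each summit from the start site or, for Myrf, Olig1 and Sox10, from the gene boundary (x axis, kb). Negative distances lie inside the gene at Myrf and Sox10 and outside it in the other panels. Sox8 and Olig1 carry broad signals, Pdgfra has no summit before 932 bp from its start and is highest at 4470 bp, and Cspg4 has summits at 24957 and 26662 bp besides those at its start.

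Summits on both sides of the selection limit averaged 16.5 to 41.3. The farthest outside a gene that still counted lay 1450 bp beyond Sox8 and averaged 21.9, 630 bp beyond Olig2 (17.2), 318 bp beyond Olig1 (25.6) and 270 bp beyond Cspg4 (19.2). The nearest that did not count lay 2139 bp from Olig2 (24.5), 3403 bp from Myrf (24.0), 8052 bp from Sox8 (32.8) and 8063 bp from Pdgfra (41.3). For Sox10, Cspg4 and Olig1 the nearest lay 12941, 21164 and 29282 bp away and averaged 18.8, 18.6 and 16.5. Some summits also lay within 2 kb of another gene and cannot be assigned to a single gene: 16 of those at Sox8 are shared with the non-coding RNA gene Cerox1, 11 at Olig2 with the non-coding RNA gene Gm52261 and 2 at Sox10 with Gm10863.

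The protein-coding gene most like each of the 7, by the smallest root mean square difference of log2(value + 1) at the strongest promoter summit over the 13 libraries, was Myof for Myrf (0.209), H2-K1 for Olig1 (0.194), Hspb2 for Olig2 (0.194), Gpr182 for Sox10 (0.223), Dgkz for Sox8 (0.167), Grin2c for Pdgfra (0.188) and Pcdhga11 for Cspg4 (0.251). None of these is another of the 7 genes. The measure mostly reflects the level of the mark and was used as a description.

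The libraries held between 4512817 and 10887911 reads on summits. Means were 7387009 ± 2192810 in SDS10 and 8201731 ± 2280900 in SDS30 (SD, n = 5 each), and 8778720 ± 2122681 in control (SD, n = 3). Within a group, libraries correlated over summits at 0.739 to 0.905. SDS10 replicate 2 stood apart: its values had an SD of 40.1 over all summits, against 29.8 to 33.3 in the other libraries. Several SDS10 values are also given without it, but not all of those it moved. SDS30 replicate 2 correlated least with the other libraries (median 0.794 over summits), followed by SDS10 replicate 2 (0.809). Depth was not matched between groups, and its part in the results below was not tested beyond a fit with total reads as a covariate.

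After 10 days of defeat no member summit, promoter or gene mean passed limma's test (Benjamini-Hochberg adjustment over all features, threshold 0.05), and neither did any other in the genome (0% called). The values of the lineage genes leaned low in SDS10 libraries. At 68 of the 92 summits the SDS10 mean was below control on the log2 scale, against 49.7% of all 152270 tested summits, with a median log2 fold change of -0.14 against 0.0017 over all; without SDS10 replicate 2 the count was 66. Neighbouring summits share fragments and libraries, so these are not 92 separate measurements. All 7 gene means, each the mean over a gene's summits, were lower, against 46.6% of 15248 genes, and 5 of the 7 strongest promoter summits were, against 46.3% of 14266.

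Of the 7 gene means, Myrf had the smallest unadjusted p. Its mean over 4 summits was 37.3, 23.6, 38.8, 41.1 and 41.7 in the SDS10 libraries, against 56.8, 42.6 and 45.0 in control. Every SDS10 library lay below every control library, as at 4.05% of genes in either direction. The means were 36.5 ± 7.40 (SD, n = 5) and 48.1 ± 7.60 (SD, n = 3), and the log2 fold change of -0.41 (95% interval -0.77 to -0.04, SE 0.17) had an unadjusted p of 0.0320 and an adjusted p of 0.998 in limma. Among all genes 3.7% reached an unadjusted p under 0.05, and of the 7 only Myrf did. The low SDS10 replicate 2 carried part of this value: without it the log2 fold change was -0.26. With summits up to 5 kb from the gene counted, the log2 fold change of the gene mean was -0.06. At the Myrf promoter the strongest summit stood at 57.4, 48.0, 62.1, 44.0 and 53.7 in SDS10, against 83.8, 61.7 and 72.2 in control. The groups overlapped narrowly, at 62.1 in SDS10 and 61.7 in control, and the log2 fold change was -0.44 (95% interval -0.91 to 0.02; unadjusted p = 0.0604, limma adjusted p = 0.99995).

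Next to that summit, the Myrf summit at -292 bp, inside the boundary, (chr19:10240484-10240485) had the smallest p of all 92. It stood at 36.9, 25.4, 34.8, 25.4 and 35.0 in SDS10, against 59.4, 49.5 and 50.4 in control. The groups did not overlap, and the log2 fold change was -0.75 (95% interval -1.22 to -0.28; unadjusted p = 0.00282, limma adjusted p = 0.99995). Without SDS10 replicate 2 it was -0.68. The summed promoter level of microglia markers (6 of 12 with a promoter summit) also separated the groups, upwards, with 261 to 293 in SDS10 and 234 to 258 in control. Of these 6 markers 0 reached an unadjusted p under 0.05 in limma, and the sums of the other marker lists overlapped. The part of microglia in the Myrf values was not tested.

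At Olig2 most summits had lower values in SDS10, but the strongest promoter summit did not. The strongest promoter summit stood at 41.0, 40.9, 38.6, 42.4 and 49.6 in SDS10, against 40.5, 40.8 and 33.2 in control, a log2 fold change of 0.15 (95% interval -0.34 to 0.64, limma adjusted p = 0.99995). Averaged over all promoter summits instead, Olig2 had a log2 fold change of -0.25. Of its 18 summits 15 were lower in SDS10, those at -497, -295 and -61 bp before the start among them, and the summits at 142, 300 and 3315 bp were higher. The gene mean was 26.9 ± 3.82 in SDS10 (SD, n = 5) and 33.0 ± 2.15 in control (SD, n = 3; log2 fold change -0.29, 95% interval -0.62 to 0.03, unadjusted p = 0.0721, limma adjusted p = 0.998). The summit 2331 bp into the gene (chr16:91227880-91227881) stood at 22.1, 4.23, 24.5, 16.9 and 23.6 in SDS10, against 34.2, 29.5 and 45.8 in control. The groups did not overlap and the log2 fold change was -1.13 (95% interval -1.95 to -0.32; unadjusted p = 0.00802, limma adjusted p = 0.99995). SDS10 replicate 2, at 4.23, weighed on it: without that library it was -0.71. The summit at 1716 bp (chr16:91227265-91227266) stood at 16.4, 19.8, 11.3, 11.9 and 19.5 in SDS10, against 23.8, 32.1 and 29.8 in control, a log2 fold change of -0.84 (unadjusted p = 0.0209, limma adjusted p = 0.99995). Here too the groups did not overlap.

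In all, 7 of the 92 summits had an unadjusted p under 0.05 in limma, all lower in SDS10 (6 at Olig2 and 1 at Myrf), against 3.21% of all summits. The count ran from 1 to 9 when single libraries were left out: leaving out control replicate 3 gave 1, leaving out control replicate 1 gave 3 and leaving out SDS10 replicate 2 gave 4. edgeR on the recovered reads gave 5 and DESeq2 gave 7. The groups did not overlap at 5 summits that were lower in SDS10 (Myrf at -292 bp, Olig1 at 644 bp, Olig2 at 1716 and 2331 bp, Pdgfra at 3979 bp) and at 1 that was higher (Sox8 at 1267 bp), against 2.98% of all summits. At Pdgfra that summit (chr5:75156229-75156230) stood at 41.0, 43.8, 36.7, 40.7 and 45.5 in SDS10, against 55.9, 55.6 and 53.9 in control. At Sox8 the summit at 1267 bp averaged 54.0 ± 10.8 in SDS10 (SD, n = 5) and 40.2 ± 2.11 in control (SD, n = 3).

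At all 7 strongest promoter summits the SDS10 and control libraries overlapped, against 2.85% of promoters without overlap, and 0 of 7 had an unadjusted p under 0.05, against 2.84%. Cspg4 had the lowest promoter fold change of the 7. Its strongest summit stood at 40.2, 22.6, 32.9, 15.2 and 42.3 in SDS10, against 36.3, 33.9 and 53.9 in control. The groups overlapped, and the log2 fold change of -0.48 had a 95% interval of -1.10 to 0.14. It was -0.40 without SDS10 replicate 2, -0.26 without SDS10 replicate 4, -0.28 without control replicate 3 and -0.27 averaged over all promoter summits. Sox8 stood at 63.2, 133, 86.6, 72.8 and 75.6 in SDS10, against 72.0, 87.7 and 84.8 in control. The value of 133 is again SDS10 replicate 2; the log2 fold change was 0.04, and -0.13 without it. Olig1 overlapped fully, at 61.5, 55.1, 58.4, 44.0 and 68.3 in SDS10, against 60.1, 60.8 and 61.9 in control. Sox10 and Pdgfra also overlapped, with log2 fold changes of -0.01 (95% interval -0.68 to 0.67) and -0.16 (95% interval -0.70 to 0.39). With single libraries left out the Pdgfra value ran from -0.28 to -0.07. The intervals at Olig1, Sox10, Pdgfra and Cspg4 include the log2 fold change of -0.44 seen at the Myrf promoter. The narrowest interval was that of the Sox8 gene mean, -0.24 to 0.16 around a log2 fold change of -0.04.

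**Figure D2:**
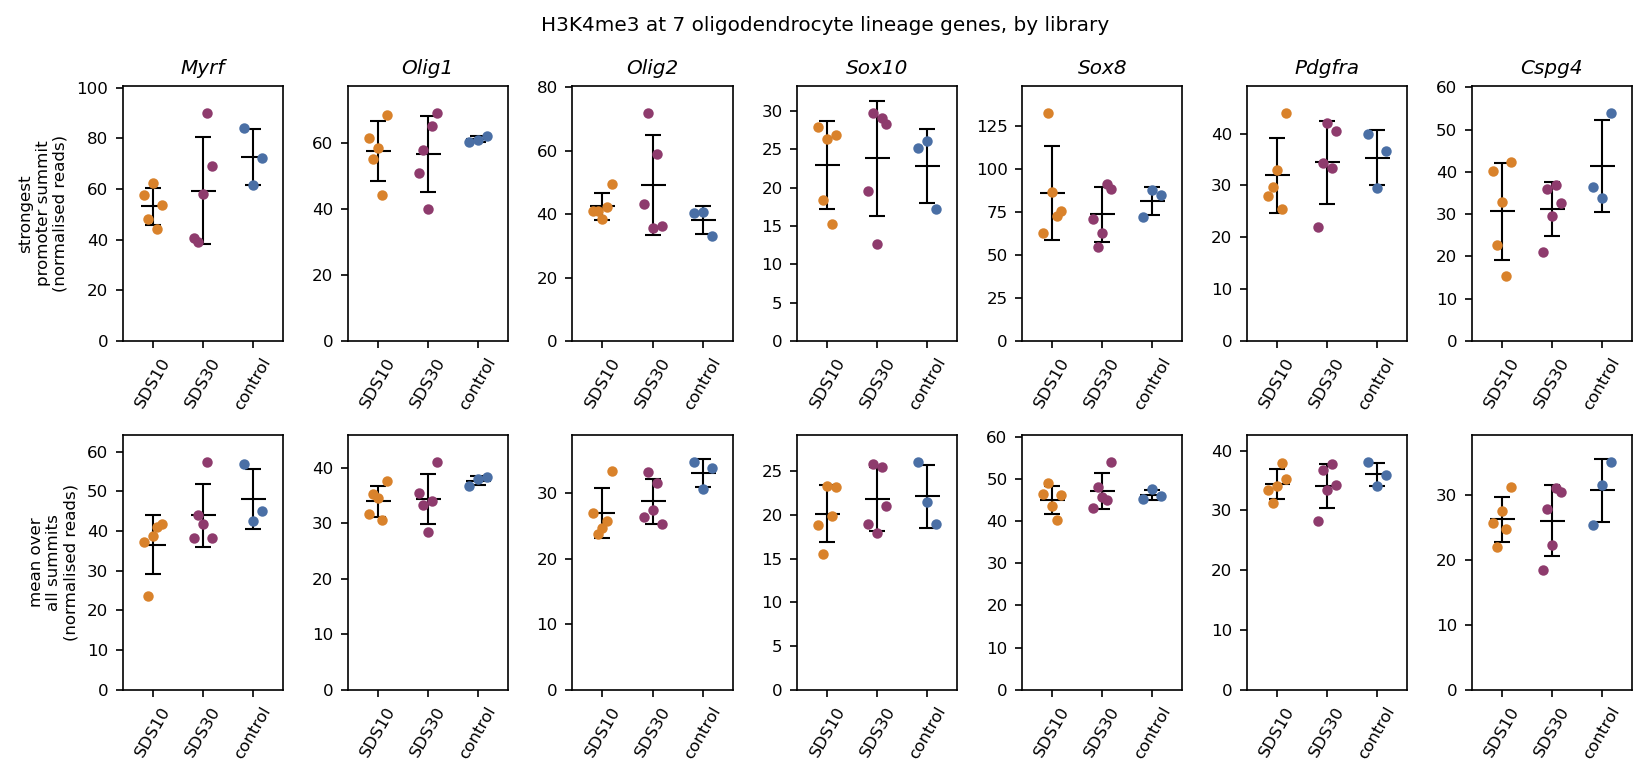
Normalised reads (y axis) at the strongest promoter summit (top row) and averaged over all summits of a gene (bottom row), by group (x axis); points are libraries, lines the mean and bars the SD (SDS10 and SDS30 n = 5, control n = 3). The Myrf gene mean separates SDS10 (23.6 to 41.7) from control (42.6 to 56.8), with a limma adjusted p of 0.998. SDS10 and control separate in either direction at 4.05% of all gene means. The groups overlap at every strongest promoter summit of the 7 genes.

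After 30 days of defeat the 7 genes again showed no called difference from control (0% of all features called by limma). The same 3 control libraries serve both comparisons, so SDS10 and SDS30 are not set against independent controls. Of the 92 summits, 59 were lower in SDS30, against 49.2% of all tested summits, with a median log2 fold change of -0.08 against 0.0043. Without one library at a time the count of lower summits ran from 50 to 68. Of the gene means 6 of 7 were lower, against 58.3% of genes, and of the strongest promoter summits 5 of 7, against 66.1%. An unadjusted p under 0.05 was reached by 2 of 92 summits (0 to 4 with single libraries left out), against 3.41% of all, and by 0 of 7 gene means (2.73%) and 0 of 7 promoters (4.95%). The groups overlapped in every gene mean and at every strongest promoter summit of the 7, against 2.28% of gene means and 3.73% of promoters without overlap.

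The largest promoter differences in value lay at Cspg4, Myrf and Olig2. Cspg4 stood at 21.1, 35.9, 29.4, 36.8 and 32.6 in SDS30, against 36.3, 33.9 and 53.9 in control, a log2 fold change of -0.39 (95% interval -1.01 to 0.23), or -0.19 without control replicate 3. Myrf stood at 40.7, 39.0, 57.8, 89.8 and 68.8 in SDS30, against 83.8, 61.7 and 72.2 in control, a log2 fold change of -0.35 (95% interval -0.81 to 0.12), or -0.13 averaged over all promoter summits and -0.22 without SDS30 replicate 2. The SDS30 libraries ranged more widely than control at Myrf, with the highest and the lowest value both in SDS30. Olig2 stood at 43.1, 71.9, 35.8, 59.0 and 36.2 in SDS30, against 40.5, 40.8 and 33.2 in control, a log2 fold change of 0.31 (95% interval -0.18 to 0.80), or -0.16 averaged over all promoter summits and 0.16 without SDS30 replicate 2. Only 3 of the 5 SDS30 libraries lay above the highest control library there. In limma these 3 had an adjusted p of 0.99998.

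The summits with the smallest p in SDS30 were at Sox8 and Pdgfra. The Sox8 summit 3362 bp into the gene (chr17:25567323-25567324) stood at 25.1, 40.6, 21.0, 31.7 and 34.1 in SDS30, against 11.2, 29.5 and 14.9 in control. The groups overlapped through the control library at 29.5, and the log2 fold change was 0.76 (95% interval 0.12 to 1.41; unadjusted p = 0.0215, limma adjusted p = 0.99998), or 0.48 without control replicate 1. The strongest Pdgfra summit of all, 4470 bp downstream of the start, stood at 46.2, 42.2, 41.0, 61.6 and 48.5 in SDS30, against 55.2, 66.0 and 79.1 in control. Of the SDS30 libraries 4 lay below every control library, and the log2 fold change was -0.47 (95% interval -0.90 to -0.04; unadjusted p = 0.0331, limma adjusted p = 0.99998). In SDS10 the same summit stood at 59.1, 43.8, 78.1, 61.0 and 53.7, a log2 fold change of -0.18 from control, which ran from -0.31 without control replicate 1 to -0.05 without control replicate 3 and was -0.08 without SDS10 replicate 2. The Olig2 summit at 1716 bp stood at 21.1, 9.37, 18.9, 18.8 and 21.7 in SDS30, all below the 23.8, 32.1 and 29.8 of control (log2 fold change -0.68, unadjusted p = 0.0588, limma adjusted p = 0.99998).

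The groups did not overlap at 3 summits lower in SDS30 (Myrf at -292 bp, Olig2 at 1716 and 1850 bp) and at 1 higher (Sox8 at 1153 bp), against 2.96% of all summits. The Myrf summit stood at 38.4, 39.0, 40.0, 47.9 and 39.9 in SDS30, against 59.4, 49.5 and 50.4 in control, a log2 fold change of -0.36 (95% interval -0.84 to 0.11, limma adjusted p = 0.99998). The Olig2 summit at 1850 bp averaged 22.6 ± 5.26 in SDS30 (SD, n = 5) and 30.4 ± 0.763 in control (SD, n = 3). The Sox8 summit at 1153 bp averaged 62.9 ± 6.56 in SDS30 and 47.9 ± 3.74 in control. The number of lower summits differed by gene: 16 of 18 at Olig2, 12 of 14 at Olig1 and 11 of 15 at Pdgfra, but 14 of 32 at Sox8, 2 of 4 at Myrf and 1 of 4 at Sox10.

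Set directly against each other, SDS30 and SDS10 showed no called difference at the lineage genes in limma (0% of all features called). Both groups enter the comparisons with control above, so it adds no independent libraries. Of the 92 summits 58 were higher in SDS30 and 34 lower, against 50.1% lower among all, and 0 had an unadjusted p under 0.05 (0 to 3 with single libraries left out), against 5.12% of all. DESeq2 gave 1. Of the gene means 2 of 7 were lower, against 62% of genes, and of the strongest promoter summits 2 of 7, against 69.1%. An unadjusted p under 0.05 was reached by 0 of 7 gene means (6.81% of genes) and 0 of 7 promoters (9.65%). The groups overlapped in all 7 gene means and promoters, against 0.964% of gene means and 1.14% of promoters without overlap. The Myrf gene mean stood at 38.2, 44.1, 41.8, 57.3 and 38.2 in SDS30, against 37.3, 23.6, 38.8, 41.1 and 41.7 in SDS10. The groups overlapped, and the log2 fold change was 0.27 (95% interval -0.05 to 0.59, limma adjusted p = 0.745), or 0.13 without SDS10 replicate 2 and 0.08 with summits within 5 kb. The Myrf summit at -292 bp was the only one of the 92 whose SDS30 libraries (38.4 to 47.9) all lay above the SDS10 libraries (25.4 to 36.9), against 0.72% of all summits without overlap; its log2 fold change was 0.38 (95% interval -0.02 to 0.79, limma adjusted p = 0.963).

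The smallest p-values of this comparison were at Olig2 and Sox8. The Olig2 summit 725 bp into the gene (chr16:91226274-91226275) stood at 46.2, 65.6, 35.8, 28.2 and 38.4 in SDS30, against 32.0, 15.5, 33.9, 22.02 and 50.4 in SDS10 (log2 fold change 0.51, unadjusted p = 0.0568; 0.30 without SDS10 replicate 2). The groups overlapped widely. The Olig2 summit at 2331 bp stood at 18.01, 42.2, 21.0, 35.1 and 21.0 in SDS30, against 22.1, 4.23, 24.5, 16.9 and 23.6 in SDS10 (log2 fold change 0.68, unadjusted p = 0.0587; 0.26 without SDS10 replicate 2). At Sox8 the summit at 1873 bp had a log2 fold change of 0.38 (unadjusted p = 0.0640). The limma adjusted p was 0.963 for all 3. At the strongest promoter summits the log2 fold changes ran from -0.20 at Sox8 to 0.16 at Olig2, and the 95% intervals of all 7 included 0. Both ends leaned on 1 library: Sox8 was -0.03 without SDS10 replicate 2, and Olig2 was 0.01 without SDS30 replicate 2.

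**Figure D3:**
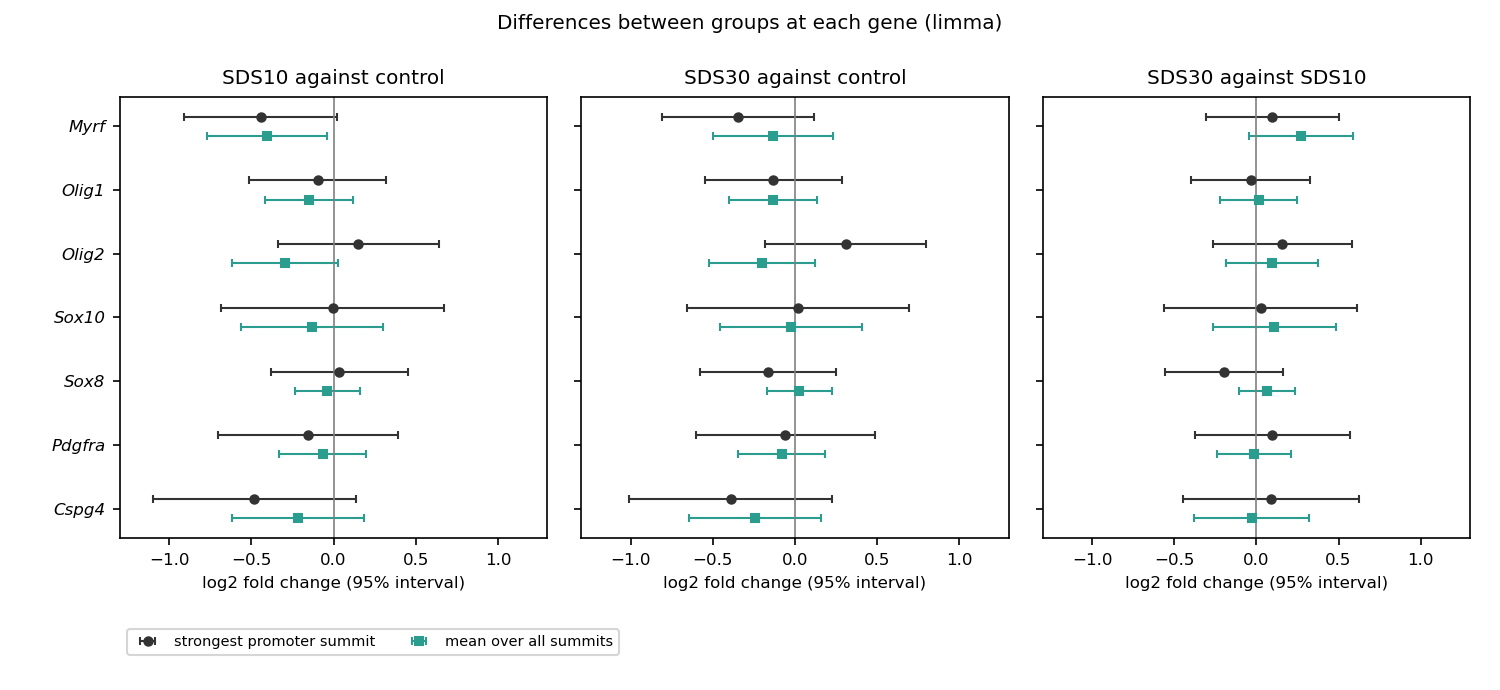
Log2 fold change with its 95% interval from limma (x axis) for each gene (y axis), at the strongest promoter summit (circles) and over the mean of all summits (squares), in the 3 comparisons. The intervals include 0 everywhere except for the Myrf gene mean in SDS10 against control, whose adjusted p was 0.998.

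The wider lineage was read at the strongest promoter summit of 79 other genes of oligodendrocyte development, of which 72 had one; Sox5, Gpr17, Bcas1, Enpp6, Neu4, Pdgfb and Nrg1 did not. None of the 72 passed the limma test after adjustment in any comparison (0% of all promoters called). In SDS10 against control, 1 was higher and 1 lower at an unadjusted p under 0.05, against 2.84% of all promoters. In all, 41 of 72 were lower, against 46.3% of all promoters, and the median log2 fold change was -0.03 against 0.01 over all promoters. Tcf4, an E protein that pairs with lineage basic helix-loop-helix factors, averaged 136 ± 38.1 in SDS10 (SD, n = 5) and 104 ± 10.2 in control (SD, n = 3), a log2 fold change of 0.35. Tcf7l2, a Wnt pathway factor of maturing oligodendrocytes, averaged 60.9 ± 21.5 in SDS10 and 82.1 ± 10.5 in control, a log2 fold change of -0.49. Next by p were the histone deacetylase Hdac2 (0.26) and the lysophosphatidic acid receptor Lpar1 (0.22) among the higher, and the zinc-finger factor Zfp488 (-0.42) and the precursor gene C1ql1 (-0.30) among the lower.

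In SDS30 against control 0 were higher and 4 lower at an unadjusted p under 0.05, against 4.95% of all promoters. In all, 38 of 72 were lower, against 66.1% of all promoters, and the median was -0.02 against -0.07. Chd7, a chromatin remodeller that works with Sox10, averaged 76.6 ± 16.4 in SDS30 (SD, n = 5) and 108 ± 10.3 in control (SD, n = 3), a log2 fold change of -0.52. Yy1, a zinc-finger factor needed for differentiation, averaged 85.8 ± 26.0 in SDS30 and 114 ± 11.8 in control. Pdgfa, which encodes a ligand of the Pdgfra receptor, averaged 98.9 ± 12.6 in SDS30 and 125 ± 13.04 in control, a log2 fold change of -0.34. The 3 higher genes with the smallest p were the growth factor receptor Fgfr2 (0.32), the glial factor Nfia (0.49) and Sapcd2 (0.24).

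In SDS30 against SDS10, 2 were higher and 6 lower at an unadjusted p under 0.05, against 9.65% of all promoters. In all, 41 of 72 were lower, against 69.1% of all promoters, and the median was -0.04 against -0.08. Nfia averaged 39.3 ± 18.7 in SDS30 and 24.7 ± 9.68 in SDS10 (SD, n = 5 each), a log2 fold change of 0.63. The zinc-finger repressor Zfp536 (0.29) was the other higher gene with an unadjusted p under 0.05. Susd5 (0.36) came next by p and lay above that limit (unadjusted p = 0.0970 in limma). The bone morphogenetic protein receptor Bmpr1a (-0.42) and the zinc-finger factor Zfp24 (-0.39) were among the lower.

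Of 27 myelin genes, which mark mature oligodendrocytes, 21 had a promoter summit; Mog, Mobp, Opalin, Ermn and Nfasc were among those that did not. Against control, 11 of 21 were lower in SDS10 (median -0.04), against 46.3% of all promoters (median 0.01). In SDS30, 13 of 21 were lower than in control (median -0.07), against 66.1% of all promoters (median -0.07). Between SDS30 and SDS10, 7 of 21 were lower in SDS30 (median 0.08), against 69.1% of all promoters (median -0.08). Their summed level ran from 1098 to 1246 in SDS10, 1128 to 1289 in SDS30 and 1196 to 1281 in control, so the groups overlapped. The labelled tissue thus carried the mark at all 7 lineage genes and at most of the myelin markers.

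**Figure D4:**
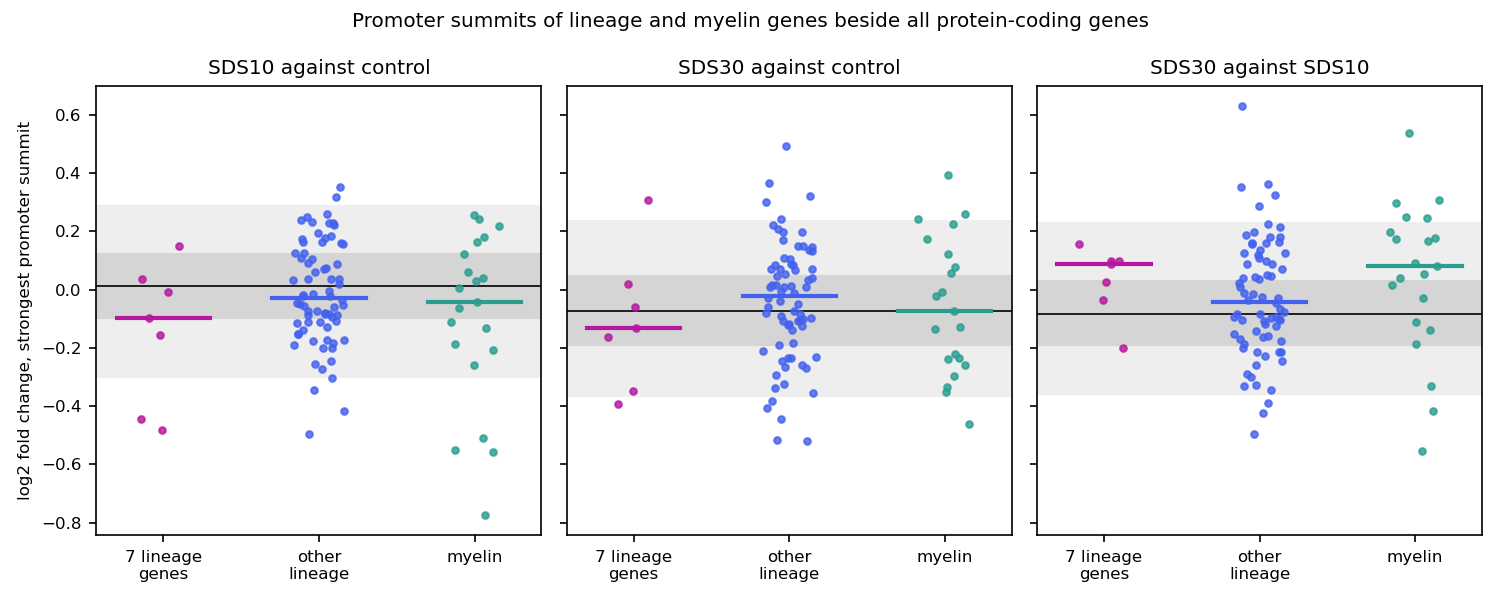
Log2 fold change at the strongest promoter summit (y axis) of the 7 genes, 72 other lineage genes and 21 myelin genes (points; coloured lines are medians), beside all 14266 protein-coding genes (black line the median, dark band the middle 50% and light band the middle 90%). The median of the 7 genes was -0.10 for SDS10 and -0.13 for SDS30, both against control, and 0.09 between SDS30 and SDS10.

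Markers of the other cells of the tissue were summed in the same way. Neuron markers (15 of 16 with a promoter summit, none for Rbfox3) ran from 535 to 868 in SDS10, 548 to 849 in SDS30 and 529 to 720 in control. Astrocyte markers (9 of 12, none for Gfap, Aqp4 and Slc1a2) ran from 446 to 521 in SDS10, 426 to 503 in SDS30 and 451 to 469 in control. Microglia markers (6 of 12, none for Cx3cr1, Csf1r, Aif1, C1qb, Itgam and Ptprc) ran from 261 to 293 in SDS10, 237 to 287 in SDS30 and 234 to 258 in control. Vascular and mural markers (12 of 14, none for Pecam1 and Des), which include cells that express Cspg4, ran from 494 to 590 in SDS10, 505 to 631 in SDS30 and 537 to 575 in control. Fibroblast markers (5 of 8, none for Col3a1, Dcn and Lum), of cells that can express Pdgfra, ran from 230 to 296 in SDS10, 195 to 285 in SDS30 and 219 to 296 in control. The part of these cells in the values of the lineage genes was not tested.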

How the data were processed

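Samples were put into groups from the labels, which also describe micrococcal nuclease digestion, 6 to 8 cycles of PCR and single reads of 100 bp. The submitters' processing notes name Trimmomatic, Bowtie2, MACS2, DESeq2, mm10 and GRCm38.p5. The deposited signal is the authors' reads per summit over 1 size factor per library; 100% of values were whole multiples of a library's step within 0.001 reads, so reads could be recovered. A deposited peak score entered no test. Summits lie 199 bp apart in the median. The sources used here do not give the handling of duplicates or the counting window. The input library was not analysed here.

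Because values are normalised, limma (3.58.1, R 4.3.3) with a variance trend was fitted on log2(value + 1) with all 13 libraries and without a covariate. That scale understates changes of low summits. filterByExpr of edgeR (4.0.16) kept 152270 summits, including all 92 at the 7 genes, and left out 937. DESeq2 was 1.42.0. Genes and promoters came from RefSeq (GRCm38.p6, the same primary assembly as mm10). Named summits were each gene's strongest promoter summit, the strongest more than 2 kb from that summit and the 3 smallest p-values per comparison. Non-overlapping summits were named after their values were seen. From the other lineage genes, the 3 smallest p-values per direction were named; some of the genes this rule takes are left out of the text. The genes, lists and tests were chosen with earlier results of these data known.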

Additional observations from a re-analysis of the deposited data

Results flagged for a closer look

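In the mean over its 4 summits, Myrf had a value of 23.6 in SDS10 replicate 2, far below the 37.3 to 41.7 of the other 4 SDS10 libraries. Its gap to the next library, as a share of the group's range, passed Dixon's 95% limit. Of 28 groups of 5 libraries checked this way, 1 was flagged, and chance flags about 1 in 20. Without that library the log2 fold change of the Myrf gene mean in SDS10 against control was -0.26, against -0.41 with it. SDS10 replicate 2 is also the library with the widest spread of values over all summits.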

How the results depend on the processing

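No feature passed the limma threshold under any alternative run with it: TMM scaling or loess offsets, no filter on low reads, a pseudocount of 8, total reads as a covariate, distances of 1 and 5 kb, and leaving out each library. Scaling to total reads moved no level of the 7 genes by more than the spread between libraries. edgeR also called 0. DESeq2 called 4 summits and 2 strongest promoter summits in SDS30 against SDS10, where limma called 0. The labels do not say that a replicate number marks a shared animal or day, and the deviations of 3 of 11 same-numbered pairs correlated above 0.1 (range -0.287 to 0.368), so the numbers were not taken as pairs. A fit with the replicate block called 0 and turned Sox8 in SDS10 (promoter -0.0126, summit at 2213 bp 0.0316) and in SDS30 (summit at 2213 bp 0.0399) and Sox10 in SDS30 (-0.0427).

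The other reversals are given as log2 fold changes, and their cause was not tested. Loess offsets gave Sox10 0.0110 in SDS10, -0.0563 in SDS30 and -0.0673 in SDS30 against SDS10, and the Olig1 gene mean -0.0132 there. Total reads as a covariate gave Sox10 0.111 in SDS10 and, in SDS30 against SDS10, Sox10 -0.0400, the Olig1 gene mean -0.00576 and the Sox8 summit at 2213 bp -0.00120. Summits within 5 kb gave the Myrf gene mean 0.0186 in SDS30. The mean over all promoter summits gave Olig2 -0.250 and Sox8 -0.0102 in SDS10, Olig2 -0.164, Sox10 -0.0237 and Sox8 0.0194 in SDS30, and Olig1 0.0146, Sox8 0.0295, Pdgfra -0.0324 and Cspg4 -0.0457 in SDS30 against SDS10. edgeR and DESeq2 gave Sox10 0.0308 and 0.0339 in SDS10, Cspg4 -0.0431 and -0.0453 in SDS30 against SDS10, and the Sox8 summit at 2213 bp -0.0265 and -0.0251 there.

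With each library left out, these ranges crossed 0. For the strongest promoter summit they were Sox10 -0.189 to 0.124 and Sox8 -0.131 to 0.134 in SDS10; Pdgfra -0.179 to 0.0901 and Sox10 -0.163 to 0.220 in SDS30; and Myrf -0.0680 to 0.227, Olig1 -0.125 to 0.0816, Sox10 -0.104 to 0.227 and Cspg4 -0.128 to 0.225 in SDS30 against SDS10, where the Sox8 summit at 2213 bp ran from -0.150 to 0.115. For gene means they were Sox8 -0.0685 to 0.00131 in SDS10; Sox10 -0.127 to 0.0939 and Sox8 -0.0232 to 0.0565 in SDS30; and Olig1 -0.0490 to 0.0787, Pdgfra -0.0523 to 0.0493 and Cspg4 -0.0968 to 0.0838 in SDS30 against SDS10. Depth limits what could be detected: weak summits held as few as 3 reads in a library.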
